A study of Mus musculus with 12 samples.

Results

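The genes described here are 8 genes of myelin and the oligodendrocyte, Mbp, Mobp, Mal, Cnp, Mag, Mog, Cldn11 and Ugt8a, taken by symbol from the 23329 genes of a hippocampal RNA-seq study of mice. They were read in 12 libraries of polyadenylated RNA from hippocampi of adult C57BL/6 mice, in 4 groups of 3: knockout mice lacking NONO (KO) at the label CT22, wild-type mice (WT) at CT22, KO at CT10 and WT at CT10. NONO is a nuclear protein that binds RNA and DNA. The labels do not spell out CT, give no age beyond adult, do not say how the knockout was made, and leave unsaid whether each library is a separate animal. The p-values below therefore rest on the spread among these libraries, part or all of which may be technical.

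Myelin is the multilayered membrane that oligodendrocytes wrap around axons in the brain, and it speeds the conduction of action potentials. Its compact layers are held together largely by myelin basic protein, while other proteins sit in the inner, non-compact layers, at the outer surface or in the junctions between the layers. Oligodendrocytes switch on the genes of these proteins together as they mature. In the hippocampus myelinated fibres run mostly in the alveus, the fimbria and the deeper layers, next to cell-body layers that hold little myelin.

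The libraries held 4435606 to 10911046 estimated counts each, of which the 8 genes took 0.247% to 0.555%. Nono stood at 0 to 0.672 CPM in the 6 KO libraries and at 150 to 169 CPM in the 6 WT libraries, so no library went against its genotype label. Of the tissue markers, 18 of 18 pyramidal and granule cell genes of the hippocampus were measured, with summed levels of 1572 to 2039 CPM over the 12 libraries. Markers of neighbouring tissue were uneven: 15 choroid plexus genes summed to 234 to 5349 CPM in KO CT22, 402 to 2193 CPM in WT CT22, 376 to 4907 CPM in KO CT10 and 340 to 2100 CPM in WT CT10. CPM are counts scaled to a common library size after scaling of the libraries by the trimmed mean of M-values (TMM).

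The bases upstream of the RefSeq starts of these genes were read for a pair of 6-base motifs of the SOX type, ACAAAG and AACAAT, on both strands. Whether these motifs bear on the levels described below was not tested. SOX10 is a transcription factor that oligodendrocytes need to express myelin genes. The most upstream RefSeq start of each of 7 of the 8 genes, all but Mbp, was used. For Mag, which has 3 starts, it lies at 30914922, upstream of the start of the transcript counted here (30914832). For Ugt8a it lies at 125938652, against 125938550. The sequences below are the upstream bases of 3 of these genes with a match and of Mog, which had none, each printed 5′ to 3′ on the strand of its gene, in GRCm38.p6, with any base inside an annotated exon left off. Capitals mark ACAAAG, which reads CTTTGT where it lies on the opposite strand.
Mobp (chr9:120149492-120149706, plus strand): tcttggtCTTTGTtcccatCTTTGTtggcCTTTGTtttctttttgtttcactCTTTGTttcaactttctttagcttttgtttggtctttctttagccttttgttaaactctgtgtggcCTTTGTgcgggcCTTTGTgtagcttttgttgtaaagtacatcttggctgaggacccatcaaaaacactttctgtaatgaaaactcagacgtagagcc
Mag (chr7:30914923-30915172, minus strand): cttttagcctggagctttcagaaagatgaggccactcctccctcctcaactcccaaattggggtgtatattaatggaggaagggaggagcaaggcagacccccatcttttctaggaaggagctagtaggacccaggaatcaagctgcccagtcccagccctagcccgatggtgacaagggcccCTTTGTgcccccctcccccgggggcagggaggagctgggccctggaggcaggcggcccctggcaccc
Cnp (chr11:100574689-100574903, plus strand): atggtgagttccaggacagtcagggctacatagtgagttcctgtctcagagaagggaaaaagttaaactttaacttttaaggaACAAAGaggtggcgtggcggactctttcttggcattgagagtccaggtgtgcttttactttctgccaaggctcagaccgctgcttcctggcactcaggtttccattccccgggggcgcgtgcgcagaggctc
Mog (chr17:37023399-37023648, minus strand): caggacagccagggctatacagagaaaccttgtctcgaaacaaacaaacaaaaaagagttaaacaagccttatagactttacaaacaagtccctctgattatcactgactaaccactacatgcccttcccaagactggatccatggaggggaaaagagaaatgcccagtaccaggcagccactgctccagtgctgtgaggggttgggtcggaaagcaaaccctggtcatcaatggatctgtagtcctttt

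ACAAAG was found in 3 of 7 windows of 250 bases, against 16.5% of 27025 RefSeq promoters of the same length. Mobp held 6 copies, all as CTTTGT, while Mag and Cnp held 1 each. AACAAT was found in 0 of 7, against 9.62% of all promoters. The base composition of the windows differed widely, with a GC content of 40.8% for Mobp, 46.8% for Mog, 57.2% for Cnp, 61.2% for Mag and 76.8% for Ugt8a. The letters alone show no binding, and no match says only that these letters are absent from these windows.

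All 8 genes were well expressed in every library. Their order is given in TPM, the deposited measure that divides by transcript length. Mbp, which encodes myelin basic protein, was far above the others at 3469 ± 752 TPM (SD, n = 12). Cnp, the enzyme of the non-compact myelin layers, followed at 470 ± 82.9 TPM. Mal, a membrane protein of myelin and of epithelia, stood at 335 ± 77.5 TPM and Mobp, a small protein of compact myelin, at 320 ± 74.3 TPM. These neighbours changed places, with Mal above Mobp in 9 of 12 libraries. Mag, the adhesion molecule that faces the axon, stood at 259 ± 51.5 TPM and Cldn11, the claudin of the tight junctions within myelin, at 245 ± 53.5 TPM, with Mag the higher in 10 of 12. Mog, the immunoglobulin-like protein of the outermost surface, stood at 152 ± 32.9 TPM. Ugt8a, the enzyme that makes galactosylceramide, the main glycolipid of myelin, was lowest at 46.1 ± 10.9 TPM. Every other pair of neighbours in this order kept its order in 12 of 12 libraries. The smallest count behind any value was 253 for Ugt8a in WT CT10 replicate 3, with a 95% exact Poisson interval of 223 to 286, which covers counting error only.

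The first comparison asked whether the loss of NONO changed the levels of these genes in the hippocampus, over both CT labels. None of the 8 passed the test: 0 of 8 were called by edgeR's quasi-likelihood test at an adjusted p of 0.05, against 0.0212% of the 14131 genes tested. At an unadjusted p under 0.05 the count was also 0 of 8, against 6.35% of all genes. DESeq2 called 0 of 8, against 22 of 23329 genes. The log2 changes of KO over WT were small, with 2 genes above 0 and 6 below and a median of −0.04, against 51.8% above 0 and 48.2% below over all genes and a median of 0.01. The range was −0.17 to 0.05, while the standard errors lay near 0.20, so a p that misses the threshold does not show equal levels. In bulk tissue, fewer oligodendrocytes and less RNA per oligodendrocyte cannot be told apart.

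**Figure D1:**
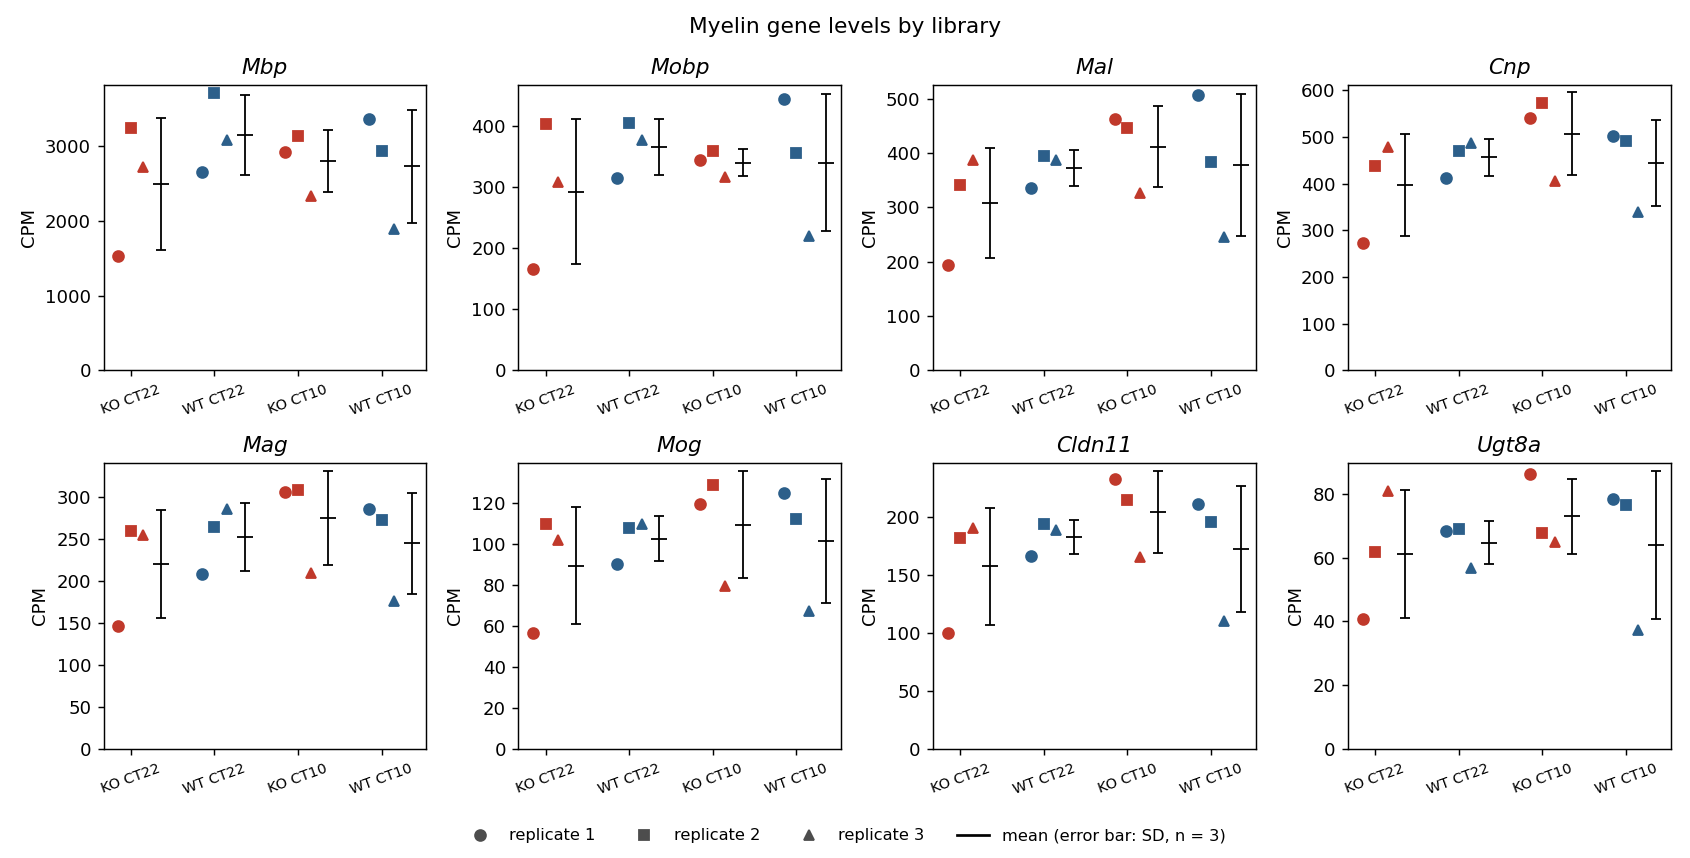
CPM of each of the 8 genes in each library, by group (red KO, blue WT), with the mean and SD of 3 libraries beside the points. In every panel the circle of KO CT22 (replicate 1) and the triangle of WT CT10 (replicate 3) lie below the other 10 points, and the KO and WT points of each CT label overlap.

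Among the genes of compact myelin, Mbp was read at 1526, 3251 and 2729 CPM in KO CT22 replicates 1 to 3, against 2654, 3715 and 3089 CPM in WT CT22. At CT10 it was read at 2922, 3139 and 2338 CPM in KO, against 3361, 2940 and 1893 CPM in WT. One KO library at CT22 and one WT library at CT10 were the lowest of all 12, and the genotypes overlapped at both labels. Over 6 libraries each, Mbp averaged 2651 ± 639 CPM in KO and 2942 ± 629 CPM in WT (SD), a log2 change of −0.15 (SE 0.20, 95% interval −0.61 to 0.31, edgeR adjusted p = 0.926).

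Mobp was read at 167, 403 and 309 CPM in KO CT22, against 316, 406 and 377 CPM in WT CT22. At CT10 the values were 344, 359 and 317 CPM in KO and 444, 356 and 220 CPM in WT. The same KO CT22 library and the same WT CT10 library were lowest, and again the genotypes overlapped at both labels. The log2 change of Mobp was −0.17 (SE 0.22, 95% interval −0.67 to 0.34, edgeR adjusted p = 0.926), the lowest of the 8. Mal gave 193, 342 and 388 CPM in KO CT22, against 335, 395 and 387 CPM in WT CT22, and 462, 446 and 326 CPM in KO CT10, against 507, 384 and 246 CPM in WT CT10. Its groups overlapped too, with a log2 change of −0.08 (SE 0.21, 95% interval −0.55 to 0.39, edgeR adjusted p = 0.959).

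In the non-compact layers and at the axonal face, Cnp was read at 274, 438 and 479 CPM in KO CT22, against 412, 469 and 487 CPM in WT CT22. Its CT10 values were 541, 573 and 407 CPM in KO, against 502, 492 and 338 CPM in WT. The average of 452 ± 107 CPM in KO lay beside 450 ± 63.6 CPM in WT (SD, n = 6 each), with a log2 change of −0.01 (SE 0.15, 95% interval −0.34 to 0.33, edgeR adjusted p = 0.997). Of the 8 genes Cnp had the narrowest interval. Mag gave 146, 259 and 255 CPM in KO CT22, against 207, 264 and 286 CPM in WT CT22, and 306, 308 and 209 CPM in KO CT10, against 285, 272 and 176 CPM in WT CT10. Its groups overlapped at both labels, and the log2 change was −0.02 (SE 0.18, 95% interval −0.43 to 0.39, edgeR adjusted p = 0.990).

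At the outer surface and in the junctions, Mog and Cldn11 were low in the same pair of libraries. Mog stood at 56.7, 110 and 102 CPM in KO CT22, against 90.2, 108 and 110 CPM in WT CT22, and at 120, 129 and 79.7 CPM in KO CT10, against 125, 112 and 67.1 CPM in WT CT10. Cldn11 stood at 99.5, 182 and 191 CPM in KO CT22, against 166, 194 and 189 CPM in WT CT22, and at 233, 215 and 165 CPM in KO CT10, against 211, 195 and 110 CPM in WT CT10. These were KO CT22 replicate 1 and WT CT10 replicate 3, and the genotypes overlapped in both genes. The log2 changes were −0.05 for Mog and 0.01 for Cldn11 (SE 0.21 and 0.20, edgeR adjusted p = 0.973 and 0.997).

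Ugt8a, the lipid enzyme of the group, was read at 40.7, 61.8 and 81.1 CPM in KO CT22, against 68.3, 68.9 and 56.8 CPM in WT CT22. At CT10 it stood at 86.5, 67.9 and 64.8 CPM in KO, against 78.3, 76.4 and 37.2 CPM in WT. It followed the other genes less closely within groups: in WT CT22 its lowest library was replicate 3, where the other 7 genes were lowest in replicate 1. The log2 change was 0.05 (SE 0.21, 95% interval −0.42 to 0.52, edgeR adjusted p = 0.974), the highest of the 8. The authors' deposited table of KO against WT gives log2 ratios of −0.16 for Mbp, −0.17 for Mobp, −0.07 for Mal and 0.05 for Ugt8a, with an adjusted p of 1 for all 8.

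The clearest feature of these genes was a shared swing between single libraries. In KO CT22 replicate 1 the 8 genes stood at 46.8% (Mobp) to 59.7% (Cnp) of the mean of the other 2 libraries of their group, a median log2 difference of −0.90. In WT CT10 replicate 3 they stood at 48.0% (Ugt8a) to 68.0% (Cnp) of the other 2, a median of −0.83. All 8 genes in both of these libraries lay below the other 10 libraries, which held for 2.75% of the 14131 genes tested. The 2 libraries were singled out after these values had been seen, so such shares describe them and test nothing. Of the 10192 genes with a mean of at least 10 CPM, 1.96% were as low against their group as the least reduced of the 8 in KO CT22 replicate 1, and 1.03% in WT CT10 replicate 3. Smaller gaps were seen in KO CT10 replicate 3, the lowest of its group for 8 of 8 genes (median −0.45), and in WT CT22 replicate 1, the lowest for 7 of 8 (median −0.25). Of the 10192 genes, 1.55% were as low as the median of the 8 in KO CT10 replicate 3 and 13.6% in WT CT22 replicate 1. As low as the least reduced of the 8 were 17.3% and 71.4%. The SD over these genes was 0.21 and 0.28 in the same order.

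The 8 genes kept their proportions to each other only in part. The SD of a gene's log2 CPM over the 12 libraries was 0.30 for Cnp to 0.40 for Mobp, while the root mean square distance of a gene from the mean course of the 8 was 0.06 for Cldn11 to 0.17 for Ugt8a. The gap farthest from that course was −0.29 for Ugt8a in WT CT22 replicate 3. Mbp was 0.26 above it in WT CT22 replicate 2.

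**Figure D2:**
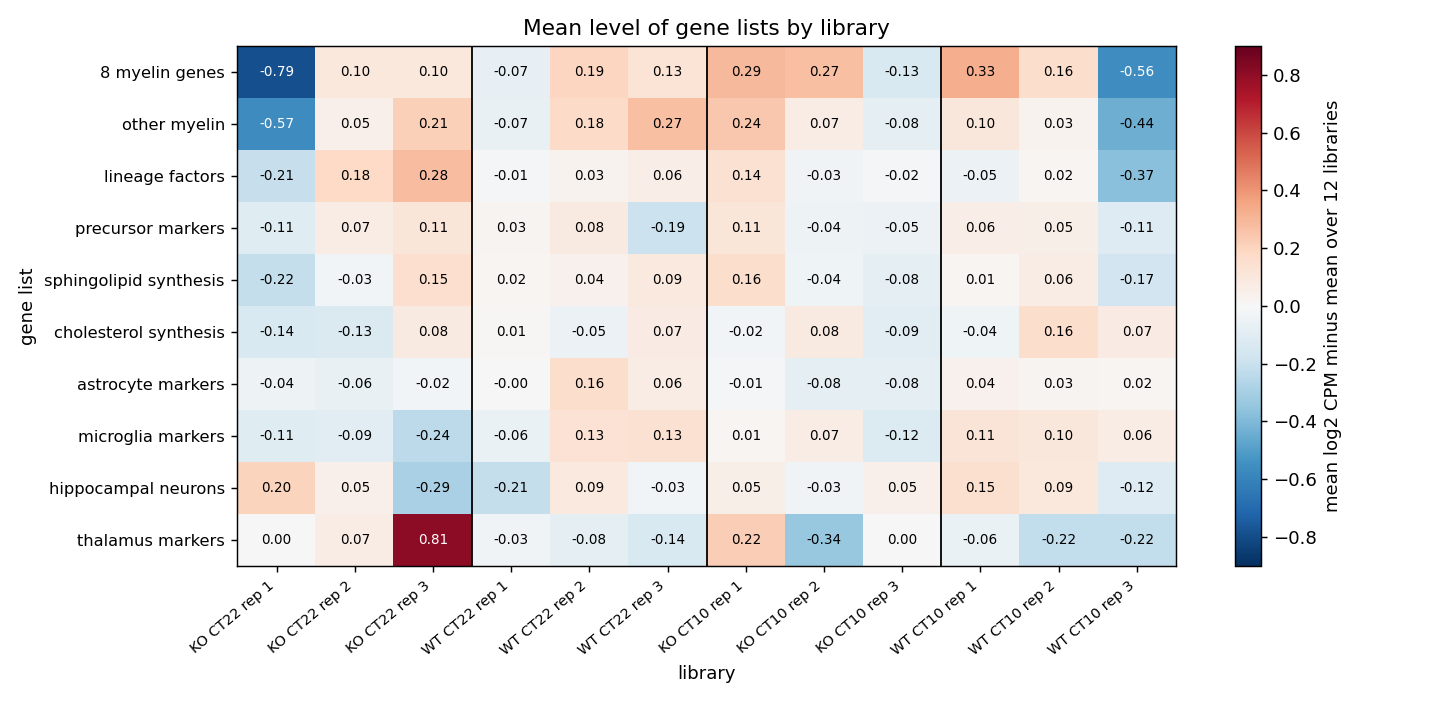
Mean log2 CPM of each gene list in each library, minus the mean over the 12 libraries, with the value in each cell (blue lower, red higher; groups divided by lines). The 8 myelin genes and the other myelin genes share their dark cells in KO CT22 replicate 1 (−0.79 and −0.57) and WT CT10 replicate 3 (−0.56 and −0.44), and the lineage factors (−0.21 and −0.37) and sphingolipid synthesis genes (−0.22 and −0.17) are also below the other 10 libraries there. Precursor, cholesterol, astrocyte and microglia lists lie between −0.14 and 0.07 in these libraries.

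Other genes of the mature oligodendrocyte were low in the same libraries. Of 30 further myelin genes tested, such as those of the compact layers and the paranode, 23 lay below the other 10 libraries in both, and the summed level of the 30 was 3188 CPM in KO CT22 replicate 1 and 3611 CPM in WT CT10 replicate 3, against 4421 to 6650 CPM elsewhere. These sums include Enpp2, which the choroid plexus also makes, at 139 and 455 CPM in the 2 libraries and 204 to 1450 CPM in the other 10. The part of choroid plexus RNA in the sums was not tested. Taken gene by gene, fewer genes of the other lineage lists were that low. Of 14 markers of precursors and newly formed oligodendrocytes 2 lay below the other 10 libraries in both, of 9 lineage transcription factors 2, and of 18 genes of sphingolipid and fatty acid synthesis 4. Over all genes tested the share was 2.75%. As a mean over each list, however, transcription factors stood at −0.21 in KO CT22 replicate 1 and −0.37 in WT CT10 replicate 3, against −0.05 to 0.28 in the other 10 libraries (mean log2 CPM minus the mean over the 12), and lipid synthesis genes at −0.22 and −0.17, against −0.08 to 0.16. By this mean both lists were below the other 10 libraries, by less than the 8 genes. Precursor and early markers, at −0.11 in each, lay inside their −0.19 to 0.11. Summed CPM, in which abundant genes weigh most, gave another picture. Transcription factors summed to 574 CPM in KO CT22 replicate 1 and 489 CPM in WT CT10 replicate 3, against 530 to 617 CPM elsewhere. Zeb2, the most abundant of them, stood at 311 CPM in KO CT22 replicate 1 and 201 CPM in WT CT10 replicate 3, against 186 to 271 CPM. Olig1 stood at 101 and 132 CPM, against 124 to 156 CPM. In the same order, lipid synthesis genes summed to 2498 and 2674 CPM, against 2540 to 2879 CPM. Psap alone gave 1932 and 2085 CPM of these sums. Precursor and early markers summed to 681 and 642 CPM, against 664 to 768 CPM. Fyn, a kinase of early differentiation, stood at 185 and 180 CPM in the 2 libraries, inside the 166 to 198 CPM of the others, and Bcas1, a marker of newly formed oligodendrocytes, at 85.5 and 99.0 CPM against 106 to 191 CPM.

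In most of the remaining lists few genes or none were that low, as 2.75% of all genes tested were. Below the other 10 libraries in both were 0 of 22 cholesterol synthesis genes, 1 of 16 astrocyte markers, 0 of 15 microglia markers, 0 of 15 choroid plexus markers, 0 of 14 meningeal markers, 0 of 14 thalamus markers and 3 of 18 pyramidal and granule cell markers (16.7%). Cholesterol synthesis genes summed to 1347 CPM in KO CT22 replicate 1, the lowest of the 12. In WT CT10 replicate 3 they summed to 1576 CPM, inside the 1371 to 1661 CPM of the other 10. Choroid plexus genes went opposite ways in the 2 libraries, with 234 CPM summed in KO CT22 replicate 1, the lowest of all 12, and 2100 CPM in WT CT10 replicate 3. Hippocampal neuron markers summed to 2039 CPM in KO CT22 replicate 1, the highest of the 12, and to 1701 CPM in WT CT10 replicate 3. Prox1, a transcription factor of dentate granule cells, stood at 148 CPM in KO CT22 replicate 1, against 45.3 to 93.8 CPM in the other 11 libraries, and Fibcd1, a CA1 marker, at 118 CPM against 175 to 341 CPM. In WT CT10 replicate 3, the other low library, Prox1 stood at 69.3 CPM and Fibcd1 at 182 CPM. These 2 genes were picked from the 18 after their values had been seen, so they do not stand for the list. Fibcd1 was lower in all 3 KO CT22 libraries (118, 177 and 189 CPM) than in the 3 WT CT22 libraries (341, 251 and 241 CPM), a difference called by DESeq2 and not by edgeR. The part of these markers in the level of the myelin genes was not tested.

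Over the whole set of 12 libraries, the genes whose course lay nearest to the mean course of the 8 were ranked among 10184 others by the root mean square difference of centred log2 CPM. Among the 10 nearest were Lpar1, a lysophosphatidic acid receptor (0.09), Trf, the iron carrier transferrin (0.10), Tspan2, a tetraspanin (0.11), and Adamts4, a secreted protease (0.12). Tmem88b, Pllp, Prkcq, Fa2h and Ttyh2 stood at 0.14 to 0.16. The median over all genes compared was 0.36. Of these 10 genes, 5 were in the list of further myelin genes and Fa2h, which hydroxylates the fatty acids of myelin galactolipids, was in the lipid list. Lpar1 stood at 22.5 CPM in KO CT22 replicate 1 and 23.9 CPM in WT CT10 replicate 3, against 31.4 to 43.3 CPM in the other 10. The likeness describes these 12 libraries only.

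The next comparisons took each CT label alone. At CT22, 0 of 8 genes were called by edgeR between KO and WT, against 0.0142% of all genes, with 0 of 8 at an unadjusted p under 0.05, against 10.9%. DESeq2 called 0 of 8, against 31 of 23329 genes. All 8 log2 changes were below 0, as were 49.4% of all genes, with a median of −0.22 and a range of −0.33 (Mbp) to −0.08 (Ugt8a). At CT10, 0 of 8 were called, against 0.00708%, with 0 at an unadjusted p under 0.05, against 3.09%. DESeq2 called 0 of 8, against 3 of 23329 genes. Here 7 of 8 log2 changes were above 0, as were 51.5% of all genes, with a median of 0.14 and a range of −0.00 (Mobp) to 0.24 (Cldn11). For all 8 genes the KO and WT libraries overlapped at both labels, while 13.7% of all genes had no overlap at CT22 and 10.3% at CT10.

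**Figure D3:**
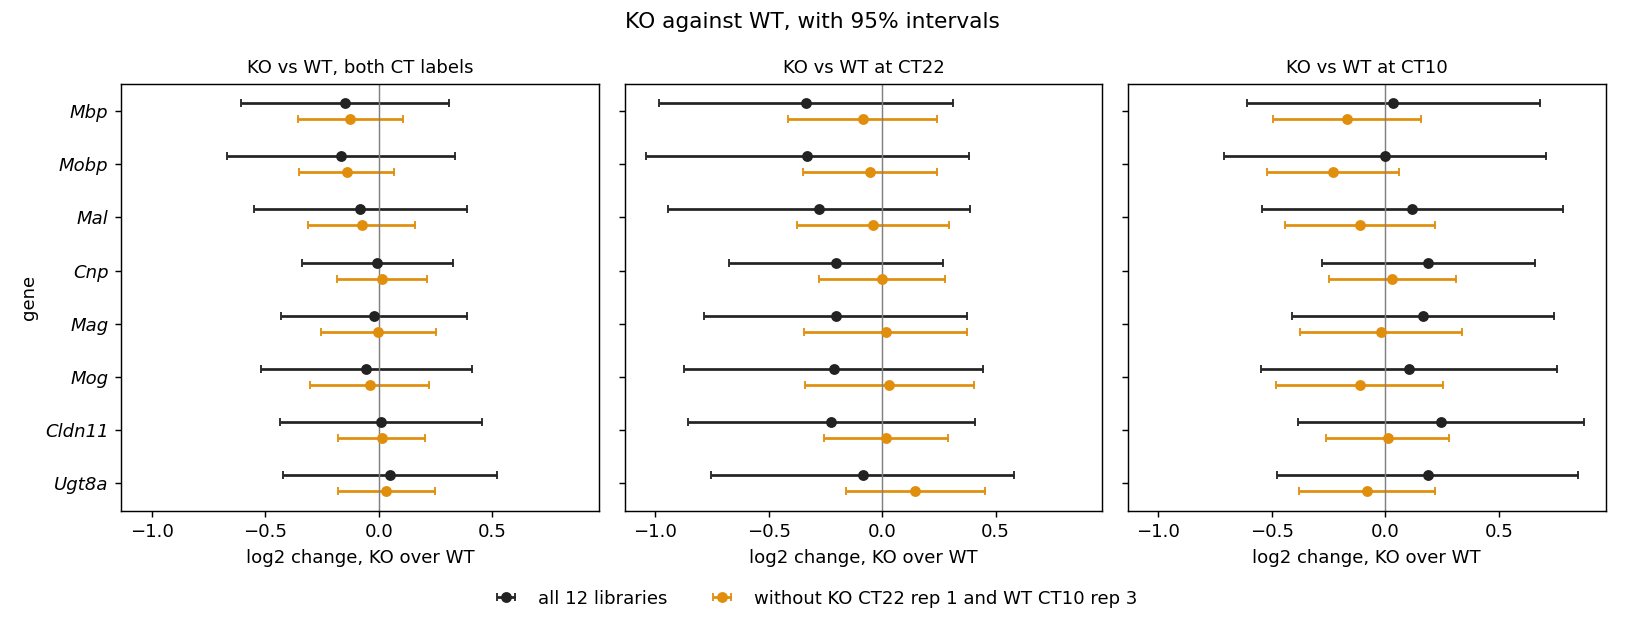
Log2 change of KO over WT with 95% intervals for each of the 8 genes, over both CT labels, at CT22 and at CT10, with all 12 libraries (black) and without KO CT22 replicate 1 and WT CT10 replicate 3 (orange). Every interval spans 0, and without the 2 libraries the CT22 values move up and the CT10 values down.

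The signs at CT22 and CT10 differed without the same 2 libraries, one in KO CT22 and one in WT CT10, which were left out together after the data had been seen. Without them the median at CT22 was 0.01, with 4 of 8 genes above 0, and the median at CT10 was −0.10, with 2 of 8 above 0. Over both labels the median was −0.02, with 3 of 8 above 0, and 0 of 8 genes were called in any of these comparisons. For the difference of the KO effect between CT22 and CT10, the median was −0.37 with 8 of 8 genes below 0, as were 50.1% of all genes, in all libraries and 0.08 with 7 of 8 above 0 without the 2. The difference itself did not pass for any gene: 0 of 8 were called by edgeR, against 0% of all genes, with 0 of 8 at an unadjusted p under 0.05, against 6.09%. DESeq2 called 0 of 8, against 0 of 23329 genes.

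The libraries at CT22 were also set against those at CT10 within each genotype. In WT, 0 of 8 genes were called by edgeR, against 0% of all genes, with 0 of 8 at an unadjusted p under 0.05, against 6.76%. DESeq2 called 0 of 8, against 4 of 23329 genes. The median log2 change of CT22 over CT10 was 0.04 with 7 of 8 above 0, as were 50% of all genes, and −0.14 with 1 of 8 above 0 without the 2 low libraries. In KO, 0 of 8 were called, against 0%, with 0 of 8 at an unadjusted p under 0.05, against 3.16%. DESeq2 called 0 of 8, against 0 of 23329 genes. The median was −0.31 with 8 of 8 below 0, as were 49.9% of all genes, and −0.08 with 2 of 8 above 0 without the 2 libraries. The CT22 and CT10 libraries overlapped for all 8 genes in both genotypes, while 16.2% of all genes had no overlap in WT and 7.96% in KO.

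No other gene of the pathway lists was called. Between KO and WT over both labels, edgeR called 0 of 30 further myelin genes (13 above 0, median −0.02), 0 of 9 lineage transcription factors (8 above 0, median 0.07), 0 of 14 precursor and early markers (9 above 0, median 0.02) and 0 of 18 lipid synthesis genes (9 above 0, median 0.00), and DESeq2 called 0 in each of these lists. At an unadjusted p under 0.05 there were 2 of 9 transcription factors and none in the other 3 lists, against 6.35% of all genes. Of all genes, edgeR called 0.0212%, DESeq2 called 22 of 23329, and 51.8% were above 0. The transcription factor list shares Tcf7l2 with the thalamus list, of which 13 of 14 genes were above 0. Olig1, a transcription factor of the oligodendrocyte lineage, averaged 136 ± 20.2 CPM in KO and 139 ± 10.5 CPM in WT (SD over 6 libraries, log2 change −0.03, edgeR adjusted p = 0.966). Zeb2, a repressor that promotes myelination, averaged 249 ± 41.2 CPM in KO and 227 ± 30.5 CPM in WT (log2 change 0.14, edgeR adjusted p = 0.861). Like the 8 genes, the further myelin genes had other signs at CT22 than at CT10. At CT22, 24 of 30 were below 0 (median −0.16), as were 49.4% of all genes. At CT10, 30 of 30 were above 0 (median 0.12), as were 51.5% of all genes. Without the 2 low libraries, where the filter kept 31 genes of this list, 15 of 31 were above 0 at CT22 and 13 of 31 at CT10.

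Enpp2 (autotaxin), an abundant gene among the further myelin genes, is also made in large amounts by the choroid plexus. It stood at 139 CPM in KO CT22 replicate 1 and 455 CPM in WT CT10 replicate 3, with 204 to 1450 CPM in the other 10 libraries, and averaged 600 ± 583 CPM in KO and 331 ± 155 CPM in WT (log2 change 0.86, SE 0.70, edgeR adjusted p = 0.863). The 15 choroid plexus markers, Enpp2 among them, were above 0 in 15 of 15 between KO and WT (log2 changes of 0.67 to 1.79), as were 51.8% of all genes. Of these markers 0 passed edgeR. Their sums were uneven among KO libraries, at 234, 826 and 5349 CPM in KO CT22 and 4907, 376 and 638 CPM in KO CT10. In WT they ran from 402 to 2193 CPM at CT22 and from 340 to 2100 CPM at CT10. None of the 8 genes is in that list.

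Transcripts of the 8 genes were then compared. The files list 19 transcripts for them, 8 of which belong to Mbp. Of these 8, 2 begin at the upstream start of the gene and belong to the Golli forms, which neurons and cells of the immune system make as well as oligodendrocytes. The other 6 begin far downstream and encode the classic myelin basic proteins. The classic forms made up nearly all of the Mbp signal, at 1455, 3170 and 2631 CPM in KO CT22, against 2558, 3642 and 3029 CPM in WT CT22, and at 2855, 3070 and 2256 CPM in KO CT10, against 3293, 2862 and 1812 CPM in WT CT10. The Golli forms were read at 71.3, 81.0 and 98.4 CPM in KO CT22, against 96.8, 73.2 and 59.7 CPM in WT CT22. At CT10 they stood at 67.3 to 81.4 CPM in KO and 68.1 to 81.0 CPM in WT. The 2 libraries with the lowest classic forms thus held 71.3 and 81.0 CPM of Golli forms, inside the 59.7 to 98.4 CPM of the other 10, although KO CT22 replicate 1 was the lowest of its group. Reads shared by transcripts were divided by estimation in the authors' processing, so these forms are less certain than the sum of the gene.

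**Figure D4:**
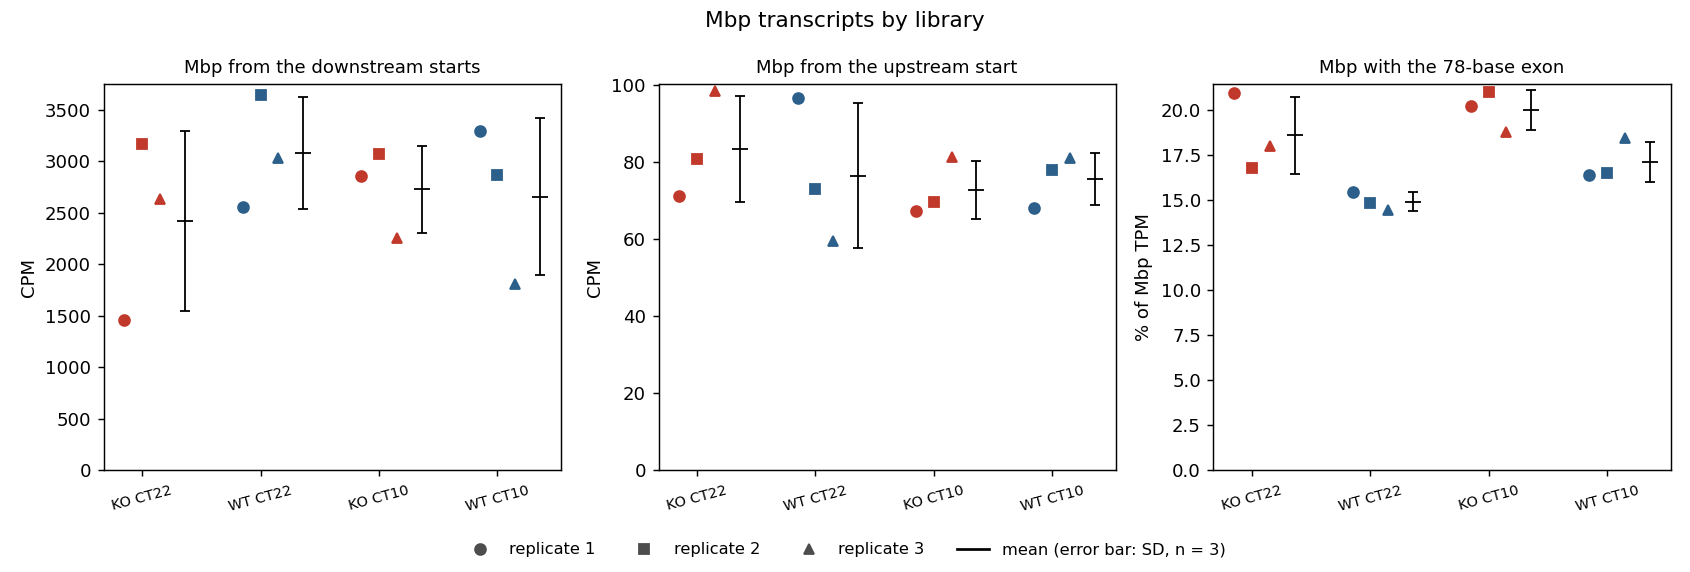
Mbp by library and group (red KO, blue WT): CPM of transcripts from the downstream starts, CPM of transcripts from the upstream (Golli) start, and the share of Mbp TPM in transcripts with the 78-base exon, each with the mean and SD of 3 libraries. In the second panel the low libraries of the first lie inside the range of the other 10, KO CT22 replicate 1 as the lowest of its group, and in the third the KO points lie above the WT points of the same CT label.

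Within the classic forms, a 78-base exon of Mbp (chromosome 18, 82561778 to 82561855, plus strand, mm10) was carried by 3 transcripts. It is known as exon II, and the forms that hold it are typical of oligodendrocytes that have begun to mature, while adult myelin holds mostly forms without it. It was present in 21.0%, 16.8% and 18.0% of Mbp TPM in KO CT22, against 15.5%, 14.9% and 14.5% in WT CT22. At CT10 its share was 20.2%, 21.0% and 18.8% in KO, against 16.4%, 16.5% and 18.4% in WT. Every KO library lay above the WT libraries of its CT label, by a narrow margin at CT10, and 1.18% of 4139 exons of 2296 genes were apart in the same direction at both labels. Over both labels the share averaged 19.3 ± 1.71% in KO and 16.0 ± 1.44% in WT (SD, n = 6 each). The difference did not pass the test: the log2 ratio of transcripts with the exon to those without differed by 0.33 (SE 0.13, unadjusted p = 0.0365, adjusted p = 0.868 by limma over the 4139 exons). Of 9 such exons in the 8 genes 0 were called by limma, against 0.0483% of all exons, and 1 had an unadjusted p under 0.05, against 5.44%. The exon comparison was chosen after the data had been seen.

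The forms of Mobp and Cnp gave no call either. The Mobp transcript with an alternative last exon (chromosome 9, 120168223 to 120169376, plus strand) took 32.8%, 42.5% and 36.4% of Mobp TPM in KO CT22, against 36.8%, 35.1% and 34.2% in WT CT22. At CT10 it took 32.8%, 32.8% and 32.2% in KO, against 35.3%, 37.7% and 37.0% in WT. The genotypes were apart at CT10, as they were in 10.4% of the 4139 exons, and overlapped at CT22, where 12.8% of exons were apart, with a log2 ratio change of −0.07 over both labels (SE 0.14, limma adjusted p = 0.978). The Cnp transcript with the upstream first exon took 45.7% to 57.2% of Cnp TPM over the 12 libraries, with a log2 ratio change of 0.04 (SE 0.17, limma adjusted p = 0.997). Mog, Mag, Cldn11 and Ugt8a are listed with 1 transcript each, and of the 2 transcripts of Mal the shorter took at most 0.631% of its TPM.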

How the data were processed

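RNA of 12 hippocampal libraries was prepared with a stranded mRNA kit and sequenced, per the labels' protocols. FastQC, TopHat 1.3.3, RSEM 1.2.5, edgeR 3.0.6 and build mm10 are named in the submitters' processing notes. Per the file headers, each deposited library file holds estimated counts and TPM for 30383 transcripts, and the authors' deposited table of the series holds log2 ratios, p-values and columns of normalised signal, of which the signal was not used. The sources used here do not state a strand setting for the counting. 0 sample columns were left unmatched.

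Groups and replicate numbers came from the titles. Estimated counts were summed per symbol and rounded. The test across genes was edgeR 4.0.16 in R 4.3.3 (filterByExpr with minimum count 10, TMM, robust quasi-likelihood fit of 4 group means to all 12 libraries, 8 residual degrees of freedom) and Benjamini-Hochberg adjustment over 14131 genes at 0.05. DESeq2 1.42.0, another scaling, no filter, a replicate block and left-out libraries were alternatives. Exon use was tested with limma 3.58.1 on log2 ratios of TPM with 0.5 added, for genes of at least 10 TPM and exons with a mean share of 1% to 99%. Log2 CPM used a prior count of 2. Libraries of a group differed by 2.92 to 20.3 times sampling noise (chi-square per degree of freedom), so no pair agreed within sampling noise, which does not show separate animals. The fit was tested on simulated data.

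The genes and lists were chosen with earlier results of these data known. All 8 genes are named, with genes of a list past the threshold in edgeR (0 genes), the 2 most abundant of 4 related lists and the 10 most alike in course, of which 1 gene is not reported here. Psap and Degs1, the 2 named for lipid synthesis, averaged 2050 and 95.8 CPM in KO and 2104 and 97.9 CPM in WT. DESeq2 called the astrocyte markers Ndrg2 and S100b over both labels, and these, Aldoc and Fibcd1 at CT22. Prox1 and Fibcd1 were chosen after their values were seen. Myrf, Cers2, Msmo1 and Nwd2 were not analysed here.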

Additional observations from a re-analysis of the deposited data

How the results depend on the processing

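Over 20 settings and 6 comparisons 0 of the 8 genes were called in any of 904 results for single genes, with adjusted p values of 0.470 or more. These settings were other size factors, library totals alone, no filter, DESeq2, the compared groups alone, genotype plus CT label, a replicate block, each library left out in turn, and both low libraries left out. Signs near 0 turned. Cnp, at −0.01 between KO and WT over both labels, was at 0.0049 with library totals alone and at 0.02 without both low libraries. Without 1 library at a time, the log2 change ran over −0.16 to 0.069 for Mog, −0.11 to 0.091 for Mag, −0.089 to 0.095 for Cnp, −0.20 to 0.052 for Mal, −0.11 to 0.13 for Cldn11 and −0.091 to 0.17 for Ugt8a, and the cause was not tested. The median of the 8 ran over −0.38 to 0.01 at CT22 (the highest without KO CT22 replicate 1) and −0.10 to 0.29 at CT10 (the lowest without WT CT10 replicate 3), −0.49 to −0.08 for CT22 over CT10 in KO and −0.15 to 0.21 in WT. For the difference between the labels it ran over −0.53 to −0.14, with 8 of 8 genes below 0 each time, and was 0.08 without both low libraries.

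With the replicate number as a block 0 of 8 were called and the median over both labels was −0.04. The deviations of same-numbered libraries from their group means correlated at −0.237 to 0.328, and those of differently numbered libraries at −0.295 to 0.287. With 3 libraries per group, these correlations cannot settle whether the numbers pair the samples. Over all genes 3 were called between KO and WT, against 10 without the filter, 22 by DESeq2, 1 with the block, and 1 to 8 without 1 library (8 without WT CT22 replicate 1). The share of the 78-base Mbp exon had log2 ratio changes of 0.27 to 0.37 without 1 library, 0.30 without both low libraries and 0.33 with the block, with adjusted p values of 0.746 or more.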
